A study of Mus musculus with 18 samples.

Results

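Chaperones and proteases of the mitochondrion, encoded by 10 nuclear genes, were examined in mouse liver RNA. Their symbols were mapped to Ensembl identifiers, and all 10 were found among the 22524 genes listed in the deposited counts and among the 13353 genes that passed the filter on low counts. The chaperones were *Hspd1*, *Hspe1*, *Hspa9* and *Trap1* (4 genes), and the proteases and their partners were *Lonp1*, *Clpp*, *Clpx*, *Afg3l2*, *Yme1l1* and *Spg7* (6 genes). They were chosen by name and function, with earlier results of these data known. The study bred mice in which the ribosomal protein gene *Rps2* carries A226Y, a substitution that makes translation error-prone, and the comparison asks whether the genes of mitochondrial protein quality control moved in their liver.

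The A226Y group consisted of 10 female C57BL/6 mice with 1 mutated and 1 wild-type *Rps2* allele, and the WT group of 8 female wild-type mice, all 15 months of age. The targeted allele holds a stop cassette between *loxP* sites, and Cre under the CMV promoter, expressed throughout the body, removes it. The WT mice carried the same Cre transgene but no targeted allele. Excision was incomplete in every A226Y mouse, so the livers are mosaics of cells that express the mutant and cells that carry 1 silenced allele, which limits the group as a model of the mutation alone. Each library came from 1 mouse.

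Mitochondria import most of their proteins unfolded. HSPA9 (mortalin) pulls them into the matrix, the HSPD1 and HSPE1 chamber folds them, TRAP1 is the HSP90 of the matrix, and the proteases LONP1 and CLPXP degrade what cannot be folded. In the inner membrane, proteases built from AFG3L2 and SPG7 face the matrix and YME1L1 faces the intermembrane space. When unfolded protein accumulates, a signal from the mitochondrion to the nucleus, the mitochondrial unfolded protein response, raises transcripts of these genes, with ATF5, ATF4 and CHOP named as its mammalian regulators and HSF1 as a further activator of the chaperonin genes.

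Total counts ranged from 23850565 to 62126131 in A226Y and from 25869192 to 34918732 in WT, and the 10 genes had between 980 and 37553 counts in any library, so the spread between mice and not counting error set the precision. *Rps2* itself was 68.6 ± 13.3 CPM in A226Y (CPM, the count scaled to the size of the library after TMM correction, mean ± SD, n = 10) and 114 ± 13 CPM in WT (n = 8), with no overlap between the groups. A single library of each genotype, A226Y 29 and WT 33 (numbers are those in the sample titles), stood apart from the others on the second principal component. On the first, the A226Y mice lay between −26.5 and −0.383 and the WT mice were spread from −11.5 to 39, with WT 4, 6 and 28 at 5.08, −11.5 and 4.69 and the other 5 at 21.9 or above. Summed hepatocyte markers ran from 75053 to 146463 CPM in A226Y (median 124050) and from 86966 to 173132 CPM in WT (median 105642), and 3 of the 7 passed the test as higher (7.27% of all genes did), while *Ttr* had a log2 fold change of −0.22 (adjusted p = 0.0753). Summed Kupffer cell and macrophage markers ran from 269 to 1062 CPM in A226Y (median 365) and from 404 to 817 CPM in WT (median 587), and 1 of the 7 (*Clec4f*) passed as lower (7.03% of all genes did), with 6 of the 7 fold changes negative. Of the other lists, 2 of 6 stellate cell markers (*Col1a1* and *Col3a1*) passed as lower while 3 of the 6 fold changes were positive (summed levels 302, 340 and 361 CPM, lowest, median and highest, in A226Y and 292, 308 and 367 CPM in WT), and no B and plasma cell, T and NK cell, endothelial, cholangiocyte or erythroid marker passed. The fold changes were nevertheless negative for all 6 B and plasma cell markers (median −0.55), all 6 T and NK cell markers (median −0.50) and all 5 erythroid markers (median −0.45), and positive for all 5 cholangiocyte markers (median 0.21). Summed B and plasma cell markers were 52.9, 76.3 and 287 CPM (lowest, median and highest) in A226Y and 53.0, 66.5 and 735 CPM in WT, and erythroid markers 164, 252 and 422 CPM in A226Y and 208, 263 and 764 CPM in WT, so in both lists the highest mouse was a WT mouse and the medians lay close or in the opposite order. Summed T and NK cell markers were 2.38, 3.87 and 6.73 CPM in A226Y and 3.16, 5.03 and 11 CPM in WT, and cholangiocyte markers 13.1, 20.8 and 29.9 CPM in A226Y and 12.1, 18.3 and 25.9 CPM in WT. None of the 4 adipocyte markers reached the filter. The part of cell makeup in the results below was not tested, and in whole liver fewer cells of a type and less RNA per cell cannot be told apart.

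Short promoter stretches are shown for 3 of the 4 genes in which a motif of a stress-activated factor was found. The fourth, *Clpp*, holds a single heat shock half-site pair, 33 bases after its start site, and is not shown. *Hspd1* and *Hspe1* lie head to head on chromosome 1, with annotated start sites 95 bases apart, and share 1 run of heat shock elements, the sites of HSF1, read here from each gene's own strand. The other stretch is that of *Trap1*, the gene with the clearest difference. Sequences are from RefSeq on GRCm38.p6, 5′ to 3′, and capitals mark the motif.
*Hspe1* heat shock elements, chr1:55088053-55088082, plus strand: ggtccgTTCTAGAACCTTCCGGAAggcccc
*Hspd1* heat shock elements, chr1:55088053-55088082, minus strand: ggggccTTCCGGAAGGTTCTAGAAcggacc
*Trap1* cyclic AMP response element, chr16:4077839-4077868, minus strand: gtcgcgcgccaTGACGTCActgagccgccc

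The marked run in *Hspe1* covers 18 bases, from −89 to −72 relative to the start site. For *Hspd1* the same bases lie from −144 to −127 relative to one of its 2 annotated start sites, at 55087932, and inside the transcript that begins at the other, at 55088243. In *Trap1* the marked bases lie from −47 to −40. Windows of 300 bases were found for 8 of the 10 genes (9 windows), none for *Hspa9* and *Afg3l2*. On both strands, the heat shock half-site pairs GAANNTTC and TTCNNGAA, which overlap in the *Hspe1* run, were present in 2 and 3 of the 9 windows and in 7.86% and 8.52% of 32851 mouse promoters. The *Hspd1* and *Hspe1* matches are the same bases, counted in 2 overlapping windows. TGACGTCA was present in 1 window and in 1.79% of promoters. TGATGCAA, the element of CHOP and ATF4, was in none of the 9 windows and in 0.895% of promoters, and neither the ETS motif CCGGAAGT (3.89% of promoters) nor the ERR motif TCAAGGTCA (0.423%) was found. The binding motif of NRF1, a palindrome of GC-rich half-sites, was in the windows of *Hspd1* and *Spg7* and in 4.60% of promoters. A match of letters describes the window and does not show that a factor binds there.

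As a group the 10 genes did not move in 1 direction. In the fit over all tested genes (edgeR, quasi-likelihood test with Benjamini-Hochberg adjustment), 1 of the 10 had an adjusted p-value under 0.05, against 14.3% of all tested genes. That gene was *Trap1*, which was lower in A226Y; 7.03% of all genes passed as lower. None of the 10 passed as higher, against 7.27% of all genes. At an unadjusted p-value under 0.05, 1 was higher (*Hspa9*, against 14.9% of all genes) and 3 were lower (*Trap1*, *Lonp1* and *Spg7*, against 14.7%). The log2 fold change was positive for 6 and negative for 4, where 49.0% of all genes were positive. The median log2 fold change of the 10 was 0.026, and that of all tested genes was −0.0044. The median of the 10 ranged from −0.00048 (without A226Y 32) to 0.042 (without WT 13) with 1 mouse left out, and was 0.005 without WT 33 and 0.0056 without A226Y 7. It was −0.011 with an offset for GC content and 0.067 with library size as the only scaling, where that of all genes was 0.039, so its sign was not stable. In no gene of the 10 were the groups free of overlap, which held for 0.637% of all genes.

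**Figure D1:**
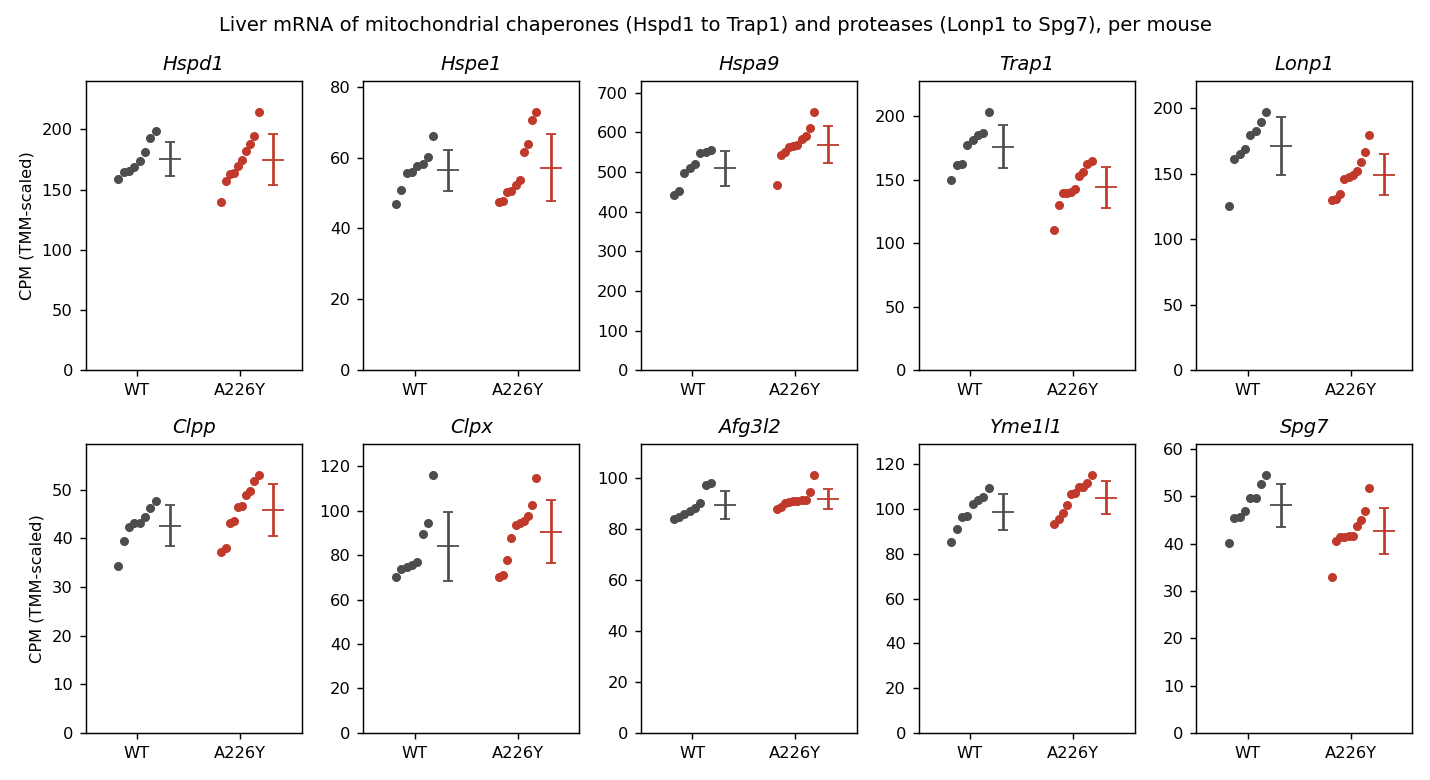
Level of each of the 10 genes in every mouse, in CPM after TMM scaling on axes that start at 0. Each point is 1 mouse (8 WT in grey, 10 A226Y in red), ordered by value within a group, and the bars beside the points are the mean and SD. The groups overlap in every panel, and *Trap1* is the only gene in which all 10 A226Y mice lie below the WT mean.

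For the chaperonin pair the fold changes were close to 0 and the intervals included 0. *Hspd1* (GRCm38, chr1:55077835-55088243, minus strand) encodes HSP60, the barrel of the chamber. Its level was 139.9, 172 and 214 CPM (lowest, median and highest) in A226Y and 159, 171 and 199 CPM in WT. The WT range lay inside the A226Y range. On the log2 scale the difference between the groups was −0.0076 (standard error 0.075, 95% interval −0.16 to 0.15, adjusted p = 0.958), and the exact permutation test over all 43758 divisions of the mice gave p = 0.859. The interval, as a percentage of the WT level, ran from −10.7% to 10.8%, so a change past those bounds is outside it. Of the 50-base words in its transcripts, 44.8% also occur in other annotated genes, 9 in number and none of them listed in the files, so its level depends on how such reads were assigned.

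*Hspe1* (chr1:55088132-55091307, plus strand) encodes HSP10, the lid of the chamber. It was 47.4, 52.9 and 72.8 CPM in A226Y and 47.0, 56.7 and 66.0 CPM in WT, with 2 A226Y mice above every WT mouse and 1 WT mouse below every A226Y mouse. In the fit the log2 fold change was 0.017 (standard error 0.091, 95% interval −0.17 to 0.21, adjusted p = 0.924; exact permutation p = 0.949). The 2 genes share 112 exonic bases on opposite strands, and counting by strand is not given in the sources used here.

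*Hspa9* (chr18:34937414-34954357, minus strand) encodes mortalin, the HSP70 of the matrix and the motor of import. It was 467, 567 and 651 CPM in A226Y and 443, 515 and 555 CPM in WT. Of the 10 A226Y mice, 9 lay above the WT mean and 7 lay above every WT mouse, while the exception, A226Y 29, was lower than 6 of the 8 WT mice. Among the WT mice, *Hspa9* was 555, 551 and 549 CPM in WT 4, 6 and 28, the WT mice nearest the A226Y mice on the first principal component, and at most 519 CPM in the other 5. The log2 fold change was 0.16 (standard error 0.07, 95% interval 0.018 to 0.30). The exact permutation test gave p = 0.0168, but the p-value adjusted over all genes was 0.119, so *Hspa9* did not pass. Without A226Y 29 it did (adjusted p = 0.0335), and with 4 surrogate variables as covariates the log2 fold change was 0.042 (adjusted p = 0.726).

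*Trap1* (chr16:4039971-4077827, minus strand) was the chaperone that fell. It was 111, 142 and 165 CPM in A226Y and 149, 179.7 and 203 CPM in WT. Every A226Y mouse lay below the WT mean, 6 lay below every WT mouse, and 5 WT mice lay above every A226Y mouse, so the overlap held 4 A226Y and 3 WT mice. WT 4, 6 and 28, the WT mice nearest the A226Y mice on the first principal component, were at 163, 162 and 185 CPM. The other 5 ran from 149 to 203 CPM. On the log2 scale the difference between the groups was −0.29 (standard error 0.08, 95% interval −0.45 to −0.13), which is −18.3% of the WT level (−26.8% to −8.74%). The adjusted p-value was 0.0161, and the exact permutation test gave p = 0.00103. It passed with each of the 18 mice left out in turn (adjusted p from 0.0117 to 0.0373). It did not pass with 4 surrogate variables as covariates (−0.24, adjusted p = 0.083) or with an offset for transcript length (−0.23, adjusted p = 0.0635). *Trap1* shares 54 exonic bases with *Dnase1*, which lies on the opposite strand.

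**Figure D2:**
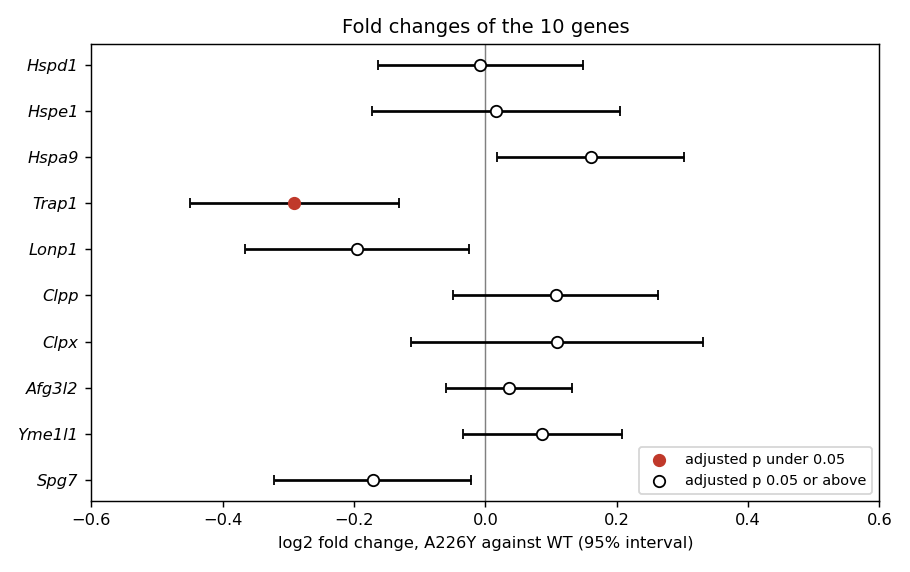
Log2 fold change of A226Y against WT for the 10 genes, with the 95% interval of the fit over all genes. The filled point marks the gene with an adjusted p-value under 0.05 (*Trap1*, −0.29), and 6 of the 10 intervals include 0, 1 lies above it (*Hspa9*) and 3 lie below it (*Trap1*, *Lonp1*, *Spg7*).

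*Lonp1* (chr17:56614297-56626887, minus strand) encodes the LON protease, which degrades oxidised and unassembled proteins in the matrix. It was 129.8, 148 and 179 CPM in A226Y and 126, 174 and 197 CPM in WT. In A226Y, 9 mice lay below the WT mean, and 4 WT mice lay above every A226Y mouse, but the lowest of all 18 was WT 33. In the fit the log2 fold change was −0.20 (standard error 0.08, 95% interval −0.37 to −0.025), with an exact permutation p of 0.0376 and an adjusted p of 0.113, so *Lonp1* did not pass. Without WT 33 it did (adjusted p = 0.0274), and with an offset for GC content the log2 fold change was −0.12 (adjusted p = 0.352).

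Both parts of CLPXP had positive fold changes that did not pass the test. *Clpp* (chr17:56990305-56996188, plus strand) encodes the peptidase chamber, and was 37.1, 46.6 and 53.1 CPM in A226Y and 34.3, 43.1 and 47.7 CPM in WT. Of the A226Y mice, 4 lay above every WT mouse. The log2 fold change was 0.11 (standard error 0.07, 95% interval −0.049 to 0.26, adjusted p = 0.352; exact permutation p = 0.199). With the offset for transcript length it was 0.19 and passed (adjusted p = 0.0353), with that for GC content it was 0.18 (adjusted p = 0.0998), with surrogate variables 0.049 (adjusted p = 0.73) and without WT 33 0.067 (adjusted p = 0.565).

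*Clpx* (chr9:65294260-65330658, plus strand) encodes the unfoldase that feeds the chamber. It was 70.1, 94.0 and 115 CPM in A226Y and 70.1, 76.2 and 116 CPM in WT, so both groups spanned nearly the same range. On the log2 scale the difference between the groups was 0.11 (standard error 0.11, 95% interval −0.11 to 0.33, adjusted p = 0.522; exact permutation p = 0.330). In WT it varied more between mice than any of the other 9 genes, with a coefficient of variation of 18.4%. Without WT 21, the highest of the 18, the log2 fold change of *Clpx* was 0.19 (adjusted p = 0.209), without A226Y 29 it was 0.065 (adjusted p = 0.692), with surrogate variables 0.19 (adjusted p = 0.458), and with the GC offset 0.071 (adjusted p = 0.708).

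*Afg3l2* (chr18:67404764-67449172, minus strand) encodes the subunit that alone or with SPG7 forms the matrix-facing protease of the inner membrane. It was the steadiest of the 10 genes, with a coefficient of variation of 4.13% in A226Y and 6.14% in WT. It was 87.8, 90.8 and 101 CPM in A226Y and 83.9, 87.6 and 98.1 CPM in WT, and 4 WT mice lay below every A226Y mouse. In the fit the log2 fold change was 0.036 (standard error 0.05, 95% interval −0.06 to 0.13, adjusted p = 0.646; exact permutation p = 0.296).

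*Spg7* (chr8:123062942-123097760, plus strand) encodes paraplegin, the other subunit of that protease. It was 32.9, 41.6 and 51.7 CPM in A226Y and 40.1, 48.3 and 54.6 CPM in WT. In A226Y, 9 mice lay below the WT mean, and A226Y 29 was the lowest of all. The log2 fold change was −0.17 (standard error 0.07, 95% interval −0.32 to −0.022), with an exact permutation p of 0.0289 and an adjusted p of 0.113, so *Spg7* did not pass. It passed without A226Y 23, the mouse with its highest level in that group (adjusted p = 0.0458), and with the GC offset the log2 fold change was −0.11 (adjusted p = 0.358).

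*Yme1l1* (chr2:23156369-23199260, plus strand) encodes the protease that faces the intermembrane space and cleaves OPA1, the inner-membrane fusion protein. It was 93.3, 107 and 115 CPM in A226Y and 85.1, 99.5 and 109 CPM in WT, and 4 A226Y mice lay above every WT mouse. On the log2 scale the difference between the groups was 0.087 (standard error 0.06, 95% interval −0.034 to 0.21, adjusted p = 0.328; exact permutation p = 0.111). It was −0.00026 with the GC offset, 0.036 with the length offset and 0.13 with library size only. With 1 mouse left out it ran from 0.058 to 0.11, and it passed in none of these fits. Of all 10 genes, the most that any interval allowed was a rise of 25.9% (*Clpx*) and a fall of 26.8% (*Trap1*) relative to WT.

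Levels were compared between genes per kilobase of exon, with the exons of all annotated transcripts of a gene merged. Merged exons were 9874 bases for *Afg3l2* and 8009 for *Yme1l1*, where the longest transcript held 4615 and 4658 words of 50 bases. The order therefore depends on the length used, and no other length was tried. In WT the order was *Hspa9* at 118 ± 10.1 CPM per kilobase (mean ± SD, n = 8), *Trap1* at 68.4 ± 6.69, *Hspd1* at 66.5 ± 5.42, *Lonp1* at 39.1 ± 5.07, *Hspe1* at 38.3 ± 3.91, *Clpp* at 34.8 ± 3.43, *Clpx* at 24 ± 4.43, *Yme1l1* at 12.3 ± 0.997, *Spg7* at 10.6 ± 1.01 and *Afg3l2* at 9.05 ± 0.556. The chaperones and the soluble matrix proteases thus stood above the 3 proteases of the inner membrane on this scale. Neighbours in the order whose WT mice did not overlap were *Hspa9* and *Trap1*, *Hspd1* and *Lonp1*, and *Clpx* and *Yme1l1*. The ranges of the other neighbours overlapped. In A226Y *Trap1* was at 55.9 ± 6.34 CPM per kilobase and *Hspd1* at 66.1 ± 8.0, so their means stood in the opposite order.

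**Figure D3:**
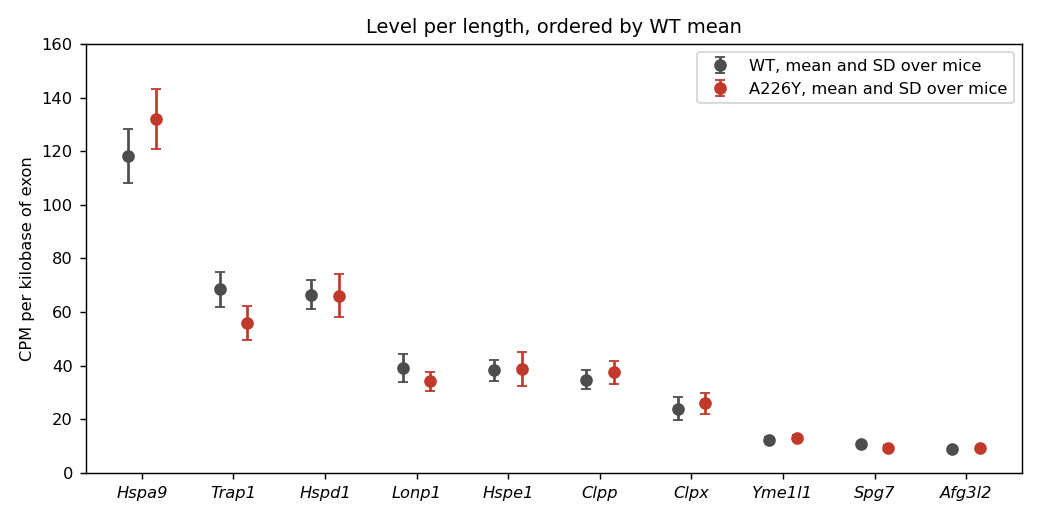
Level per kilobase of merged exon of the 10 genes, ordered by the WT mean, with WT (n = 8) in grey and A226Y (n = 10) in red. Points are means and bars are SDs. *Hspa9* stands highest (118 in WT), and the 3 inner-membrane protease genes stand lowest.

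Known partners were examined as 5 pairs across the 18 mice, with the mean of each genotype removed from log2 CPM and p-values from 100000 permutations within genotype, adjusted over the 5 pairs. *Hspd1* and *Hspe1* rose and fell together from mouse to mouse (Pearson's r = 0.741, permutation p = 0.0010, adjusted 0.0050; Spearman's rho = 0.744, permutation p = 0.0013, adjusted 0.0065). The r was 0.773 within A226Y, 0.648 within WT, and 0.706 without the 2 mice farthest from the median of *Hspd1*. The test is against no relation and not against other genes. Ranked by r among 11940 genes, *Hspe1* was number 60 for *Hspd1* and *Hspd1* was number 43 for *Hspe1*, and the part of the 112 exonic bases they share in this r was not tested. *Hspa9* and *Grpel1*, its nucleotide exchange factor, had r = 0.568 (permutation p = 0.0172, adjusted 0.0429) and rho = 0.503 (permutation p = 0.0399, adjusted 0.0996). That relation rested on A226Y 29 and WT 33, the 2 mice farthest from the median of *Hspa9*, since r was 0.213 without them.

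The other 3 pairs gave no relation that passed. *Clpp* and *Clpx* had r = −0.153 (permutation p = 0.552, adjusted 0.552) and rho = −0.236 (permutation p = 0.356, adjusted 0.445), with r = 0.226 within A226Y, −0.689 within WT and −0.343 without the 2 farthest mice. *Afg3l2* and *Spg7* had r = 0.225 (permutation p = 0.359, adjusted 0.552) and rho = 0.265 (permutation p = 0.305, adjusted 0.445), and r = 0.410 without the 2 farthest mice. *Yme1l1* and *Oma1*, the other protease that cleaves OPA1, had r = 0.20 (permutation p = 0.471, adjusted 0.552) and rho = 0.106 (permutation p = 0.691, adjusted 0.691), and r = −0.0076 without the 2 farthest mice.

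**Figure D4:**
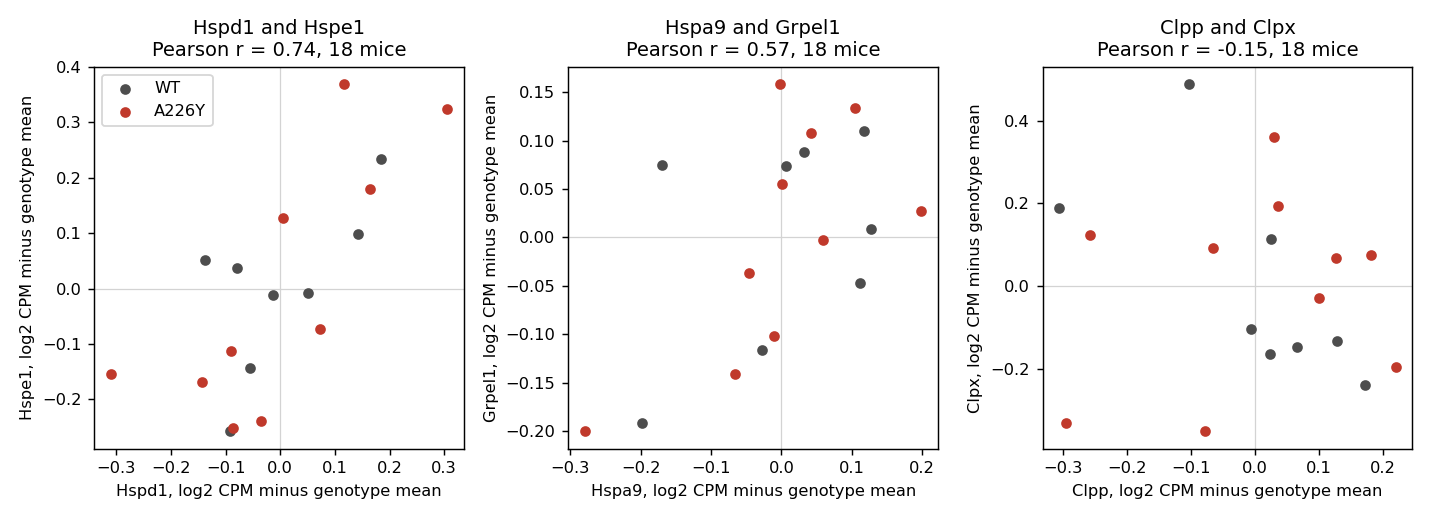
Partner pairs (3 of the 5), with each point 1 mouse (WT grey, A226Y red) and both axes in log2 CPM minus the mean of the mouse's own genotype. *Hspd1* and *Hspe1* lie along a rising line (r = 0.741), *Hspa9* and *Grpel1* less closely (r = 0.568), and *Clpp* and *Clpx* show no common direction (r = −0.153).

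The genes most like each of the 10 over the same centred levels were ranked by Pearson's r over 18 mice and the 11940 genes that averaged 1 CPM or more. The neighbours were picked for their r, and all pairs rest on the same 18 libraries of unequal depth, so these values are a description with no test. For *Hspd1* they were *Gfm1*, a mitochondrial translation elongation factor (r = 0.881), *Pafah2* (0.880) and *Ndufc1*, a subunit of complex I (0.873). For *Hspe1* they were *Gm28040* (0.862), *Golt1a* (0.861) and *Slc25a3*, the mitochondrial phosphate carrier (0.855). For *Hspa9* they were *Rbp4* (0.863), *Kif1b* (0.858) and *Bnip3* (0.855), and for *Trap1* they were *Mgst3* (0.912), *Acot3* (0.909) and *Dym* (0.901). *Lonp1* was most like *Acaa1b*, a peroxisomal thiolase (0.889), *Clpb*, a disaggregase of the intermembrane space (0.886), and *Ccdc107* (0.868).

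*Clpp* was most like *Mrpl53*, a protein of the mitochondrial ribosome (0.909), *U2af1l4* (0.874) and *Gm42688* (0.873). *Clpx* was most like *Arntl*, which encodes the clock protein BMAL1 (0.804), *Nfkbie* (0.801) and *Tep1* (0.80). *Afg3l2* was most like *Cox8a* (0.838) and *Cyc1* (0.807), subunits of complexes IV and III, and *Mapk12* (0.799). *Yme1l1* was most like *Mynn* (0.855), *Cog5* (0.822) and *2010315B03Rik* (0.817). *Spg7* was most like *Fcgrt* (0.901), *Khdrbs3* (0.885) and *Sdha*, a subunit of complex II (0.882). Among the 10 themselves the highest r was that of *Lonp1* and *Spg7* (0.815), followed by *Clpp* and *Hspe1* (0.80), and the lowest was that of *Afg3l2* and *Yme1l1* (−0.469).

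Other genes of mitochondrial protein quality control were read from the same fit, in which 7.03% of all genes passed as lower and 7.27% as higher. Of 14 further folding factors, 3 fell and none rose, with a median log2 fold change of −0.033. *Hscb*, the co-chaperone of iron-sulfur cluster assembly, was 2.89 ± 0.48 CPM in A226Y and 4.26 ± 0.683 CPM in WT (log2 fold change −0.56, adjusted p = 0.00476). *Timm44*, which tethers mortalin to the import channel, was 38.1 ± 1.85 against 43.7 ± 4.2 CPM (−0.20, adjusted p = 0.0197). *Bcs1l*, an assembly factor of complex III, was 11.5 ± 0.986 against 13.6 ± 1.98 CPM (−0.24, adjusted p = 0.0407). In each of the 3, all 10 A226Y mice lay below the WT mean.

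Of 18 further proteases and scaffolds tested, 2 fell and none rose (median −0.091). *Atp23*, a metalloprotease that processes a subunit of ATP synthase in yeast, was 3.81 ± 0.718 CPM in A226Y and 6.17 ± 1.07 CPM in WT (log2 fold change −0.69, adjusted p = 0.0025), with 8 A226Y mice below every WT mouse. *Immp2l*, a peptidase of the inner membrane, was 20.4 ± 4.29 against 29.6 ± 6.59 CPM (−0.53, adjusted p = 0.0208). Of 24 genes of protein import, 1 fell and none rose (median 0.012). It was *Timm50*, a receptor of the inner-membrane translocase (29.2 ± 1.95 against 32.8 ± 2.82 CPM, −0.17, adjusted p = 0.0476). *Grpel1* (−0.050, adjusted p = 0.624) and *Oma1* (−0.14, adjusted p = 0.372) did not pass.

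Among 16 regulators and related genes of the mitochondrial unfolded protein response, 1 rose and 1 fell (median −0.078). *Atf5*, the transcription factor named as its mammalian mediator, was 453, 555 and 815 CPM in A226Y and 231, 401 and 559 CPM in WT. All 10 A226Y mice lay above the WT mean and 5 lay above every WT mouse. In the fit the log2 fold change was 0.51 (standard error 0.16, 95% interval 0.17 to 0.85, adjusted p = 0.0402; exact permutation p = 0.00544). The call was near the threshold, and it passed in 8 of the 18 fits that left out 1 mouse.

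*Ubl5*, a ubiquitin-like protein of the response in worms, was 44.3 ± 3.41 CPM in A226Y and 50.9 ± 4.2 CPM in WT (log2 fold change −0.20, adjusted p = 0.0241), with 8 A226Y mice below every WT mouse. *Atf4* was 81.3 ± 9.67 against 79.5 ± 7.77 CPM (0.031, adjusted p = 0.822). *Ddit3*, which encodes CHOP, was 5.68 ± 1.13 against 6.59 ± 1.53 CPM (−0.22, adjusted p = 0.306). *Hsf1* was 12.8 ± 1.21 against 13.2 ± 1.34 CPM (−0.044, adjusted p = 0.714). Of these transcription factors, *Atf5* passed and *Atf4*, *Ddit3* and *Hsf1* did not. These are mRNA levels and not protein, and the study reported less ATF4 protein in A226Y liver by western blot.

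Of 13 tested targets of ATF4 that mitochondrial stress is known to raise, 1 rose and 2 fell (median −0.032). *Trib3*, a pseudokinase that restrains AKT, was 8.55 ± 4.26 CPM in A226Y and 4.85 ± 1.42 CPM in WT (log2 fold change 0.82, adjusted p = 0.0476), and 7 A226Y mice exceeded the WT mean. *Chac1*, which degrades glutathione, was 1.92 ± 0.735 against 4.10 ± 2.17 CPM (−1.10, adjusted p = 0.0234). *Shmt2*, the mitochondrial serine hydroxymethyltransferase, was 139.5, 149.6 and 169 CPM in A226Y and 170.0, 204 and 234 CPM in WT. Its groups did not overlap, and it fell by 0.43 on the log2 scale (standard error 0.07, adjusted p = 0.00159; exact permutation p = 2.29e-05, the smallest that these groups can give).

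None of 14 substrates of the mitochondrial proteases passed (4 at an unadjusted p-value under 0.05, all lower, against 14.7% of all genes; median −0.051), and none of the 8 tested subunits encoded by mitochondrial DNA did (2 at an unadjusted p-value under 0.05, both higher, against 14.9% of all genes; median 0.11). Of 14 genes of mitochondrial biogenesis and mass, 1 rose and 1 fell (median 0.0008). *Ppargc1a*, the coactivator PGC-1α, was 22.2 ± 5.65 CPM in A226Y and 13.3 ± 3.27 CPM in WT (log2 fold change 0.74, adjusted p = 0.00539), and all 10 A226Y mice exceeded the WT mean. *Vdac1*, the outer-membrane channel, was 187 ± 16.1 against 216 ± 21.4 CPM (−0.21, adjusted p = 0.0451). Of 15 cytosolic and endoplasmic reticulum chaperones and related genes, 1 rose and none fell (median 0.11). It was *Hspb1*, the small heat shock protein HSP27 (9.13 ± 3.49 against 4.77 ± 2.30 CPM, 0.93, adjusted p = 0.0316). Over these 9 lists 14 of 134 genes passed (10.4%, against 14.3% of all genes). Of the 134, 4 were higher (2.99%, against 7.27%) and 10 were lower (7.46%, against 7.03%). With 4 surrogate variables as covariates none of them passed. The log2 fold changes of *Timm44* (−0.19), *Timm50* (−0.16), *Ubl5* (−0.16), *Atp23* (−0.54), *Chac1* (−0.88), *Trib3* (0.86) and *Atf5* (0.38) were then smaller or larger by less than 1.5 times. Those of *Vdac1* (−0.14), *Hscb* (−0.35), *Immp2l* (−0.21), *Bcs1l* (−0.088), *Shmt2* (−0.26), *Ppargc1a* (0.29) and *Hspb1* (0.49) were smaller by more than that. With 1 mouse left out at a time, *Hscb*, *Timm44*, *Atp23*, *Immp2l*, *Shmt2* and *Ppargc1a* passed in all 18 fits. *Ubl5* passed in 17, *Chac1* in 16 and *Hspb1* in 13, while *Bcs1l* and *Vdac1* passed in 6 each and *Timm50* and *Trib3* in 5 each. Over the 13 settings other than leaving out 1 mouse, *Hscb*, *Atp23*, *Immp2l*, *Chac1*, *Shmt2*, *Ppargc1a* and *Hspb1* passed in 12. *Atf5* passed in 11, *Ubl5* in 10, *Timm44* and *Trib3* in 9, *Bcs1l* in 8, *Vdac1* in 7 and *Timm50* in 4.

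**Figure D5:**
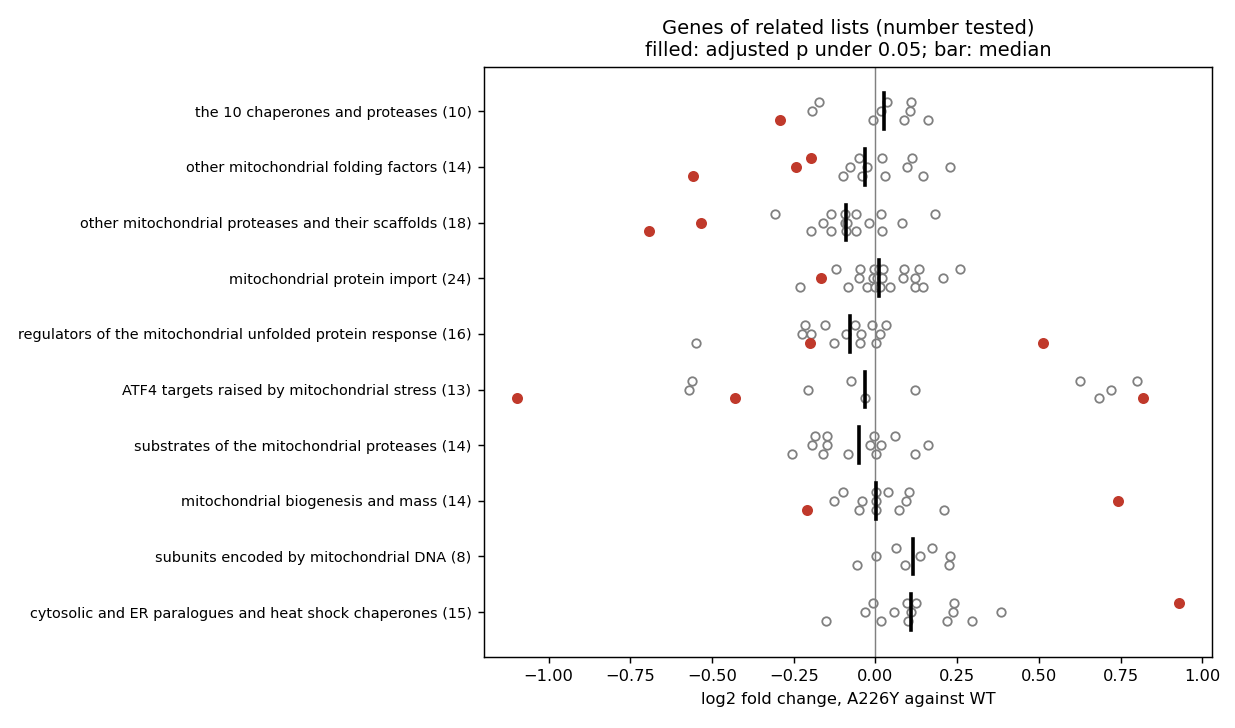
Log2 fold change of A226Y against WT for each tested gene of the 10 and of the 9 related lists, with 1 point per gene, filled points for an adjusted p-value under 0.05 and a black bar at each list's median. The medians lie between −0.091 and 0.11. The folding, protease and import lists hold 6 filled points among 56 genes, all to the left of 0 (10.7%). Of all tested genes, 7.03% passed as lower. Over all 9 related lists, 10 of 134 genes passed as lower (7.46%) and 4 as higher (2.99%).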

How the data were processed

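Liver RNA of 10 A226Y and 8 WT mice was measured by RNA sequencing. The authors deposited counts of reads per gene for each mouse, as whole numbers and without normalization. The labels name bcl2fastq, fastp, STAR, featureCounts, MultiQC and GRCm38, the methods name RSEM and a different build, and which of them made the counts is not given in the sources used here. Reads that fit several genes or both strands could be assigned differently by these tools.

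Of the 22524 Ensembl identifiers, 22291 were found in GENCODE M21 (GRCm38). Low genes were dropped, leaving the 13353 that reached 10 counts in 50% or more of either genotype's mice. A226Y was compared with WT in edgeR 4.0.16 (R 4.3.3) with TMM scaling, the two-sided quasi-likelihood test and Benjamini-Hochberg adjustment over all 13353 genes. The common biological coefficient of variation was 0.194. Intervals are 95% intervals of that fit. Named genes were tested again by exact permutation of mean log2 CPM (two-sided, prior count 2). No 2 libraries of a genotype agreed within sampling noise (chi-square per degree of freedom at least 16.5 over 73 pairs). Motifs were searched in RefSeq promoter windows.

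The 10 genes, the related lists, the tests and the markers were chosen with earlier results of these data known. Named are the 10 genes, their 5 pairs' partners, *Atf5*, *Atf4*, *Ddit3*, *Hsf1* and *Rps2*, up to 4 genes in each direction per list that passed and averaged 1 CPM or more, and the 3 genes most like each of the 10. Alternatives were RLE, upper quartile and library-size scaling, 3 other filters, DESeq2 1.42.0, limma-voom 3.58.1, a robust fit, 4 surrogate variables (sva 3.50.0), offsets for length and GC content (known for 99.6% of genes), a prior count of 0.5, and each mouse left out. Leaving out A226Y 29 and WT 33 together was added after seeing the data. The protein and respiration measurements of the study and its mice with an unexcised allele were not analysed here.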

Additional observations from a re-analysis of the deposited data

Results flagged for a closer look

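In 20 groups (10 genes in 2 genotypes), 1 mouse lay farther from the others of its group than Dixon's criterion allows. *Afg3l2* was 101 CPM in A226Y 32, with the next mouse at 94.4 CPM, a gap of 0.506 of the group's range. Chance alone flags about 1 in 20 such groups. Without that mouse or any other, the log2 fold change of *Afg3l2* stayed between 0.019 and 0.055 and did not pass the test.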

How the results depend on the processing

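Over 31 alternatives, 284 of 310 values of the 10 genes kept their direction and their side of the threshold, 19 changed sign (none of them with an adjusted p-value under 0.05), 2 lost and 5 gained significance. With 4 surrogate variables 248 genes passed in all, 0 of the 10 and 0 of the related genes; the cause was not tested. Without A226Y 29 and WT 33, 2 of the 10 passed (*Trap1*, and *Lonp1* with adjusted p = 0.026). With no filter beyond 1 count 9 related genes passed. With the length offset 1 of the 10 passed, but it was *Clpp* (higher) and not *Trap1*. Scaling by library size alone, 2059 genes passed, 67.9% of them higher against 50.8%, and 10 related genes, 5 of them higher against 4 of 14. With 1 mouse left out, 1255 (without WT 14) to 2560 genes passed, 1 to 2 of the 10 (a second one without A226Y 23, A226Y 29 or WT 33) and 7 to 22 related genes.

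The log2 fold change of *Hspd1* was 0.053 with the length offset, 0.032 with library size only, 0.0047 with surrogate variables, 0.013 without A226Y 29 and WT 33, and from −0.043 to 0.024 with 1 mouse left out. That of *Hspe1* was −0.068 with surrogate variables, −0.021 with the GC offset, and from −0.028 to 0.052 with 1 mouse left out. *Afg3l2* was −0.040 with the length offset, *Yme1l1* −0.00026 with the GC offset, *Atf4* −0.021 without the 2 mice, and *Oma1* 0.087 with surrogate variables. *Hsf1* was 0.0011 with library size only, 0.0048 with the GC offset and 0.024 with surrogate variables. *Clpp* and *Clpx* had r = 0.226 in A226Y alone and −0.689 in WT alone. Without the 2 farthest mice r was −0.0076 for *Yme1l1* and *Oma1* and 0.213 for *Hspa9* and *Grpel1*. Nothing in the labels says more than that each library is 1 mouse, so p-values set the difference between the groups against the spread between these mice. The labels record no litter or other pairing and no number is shared by the groups, so no paired analysis was run.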
